A study of Mus musculus with 12 samples.

Results

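A set of 8 marker genes of adventitial fibroblasts, Pi16, Dpt, Cd34, Ly6a, Clec3b, Scara5, Mfap5 and Gsn, were followed across 4 groups of mouse thoracic aortas. They were chosen by symbol from the deposited table of read counts, and all 8 were found among its 27933 genes and among the 14621 genes with enough counts to be tested. The mice were C57BL/6J, either wild type (WT) or lacking the alpha7 nicotinic acetylcholine receptor (alpha7-nAChR KO, here KO). From 5 months of age they breathed nicotine vapor or, as controls, room air for 12 weeks, and the aortas were taken at 8 months. The 4 groups were WT nicotine (libraries 6, 11 and 12), WT air (8, 9 and 10), KO nicotine (3, 4 and 5) and KO air (1, 2 and 7), with 3 libraries each. The values of a group are given below in that order of libraries. The labels give neither the knockout allele, the nicotine dose nor the sex of the mice, and they do not say that each library is a separate mouse, so a p-value here measures how libraries differ, and some of that may be technical.

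The adventitia is the outer coat of an artery. Its fibroblasts build the collagen and microfibril matrix outside the smooth muscle layer, and a Pi16- and Ly6a-expressing subset in the mouse is known as a progenitor-like state of connective tissue that also lies around vessels in other organs. None of the 8 genes is private to these cells. Cd34 and Ly6a are also made by endothelial cells, and Gsn is also made by smooth muscle cells. Since whole aortas were measured, fewer cells of a type and less RNA per cell cannot be told apart.

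Library totals ran between 10240031 (WT nicotine 6) and 12628323 counts (WT air 9), and the 8 genes together took between 0.280% (WT air 8) and 0.377% (WT nicotine 6) of them. The lowest count of any marker gene in any library was 308, for Ly6a in KO nicotine 4. The defining markers of the labelled tissue were present: Acta2 averaged 10245 and Myh11 15454 CPM (counts scaled to the library total) over the 12 libraries, both markers of contractile smooth muscle, and Pdgfra, of fibroblasts, 161 CPM. KO nicotine 3 stood apart, with 12 hepatocyte genes summing to 4162 CPM, against 36.2 to 659.8 CPM in the other 11 libraries, and 11 skeletal muscle genes summing to 232 CPM. Counts and medians that rest on it are given with and without it for the 8 genes and for the fibroblast lists. Chrna7, which encodes the targeted receptor, had 25, 8 and 21 counts in KO nicotine and 26, 18 and 28 counts in KO air, against 9, 18 and 26 counts in WT nicotine and 22, 35 and 37 counts in WT air. The ranges overlapped, so these low gene-level counts do not separate the genotypes, and KO and WT are used here as the labels give them. KO libraries carry numbers 1 to 5 and 7 and WT libraries 6 and 8 to 12. If the numbers follow an order of handling, that order and the genotype cannot be told apart. KO nicotine holds numbers 3 to 5 and WT air 8 to 10, so such an order could bear on the nicotine comparisons too.

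The 250 bases before the start of 3 of the genes are printed so that the starts of genes marking the same cells can be read side by side. RefSeq's table of promoters (GRCm38.p6) matched 4 of the 8 genes (Pi16, Dpt, Cd34 and Gsn, the last with 3 starts), and the strand shown is that of the gene. Capitals mark matches to CCAAT or GGGCGG on either strand. The Pi16 window lies at chr17:29318632-29318881, that of Dpt at chr1:164796413-164796662 and that of Gsn start 3 of 3 at chr2:35282130-35282379, all on the plus strand.
Pi16: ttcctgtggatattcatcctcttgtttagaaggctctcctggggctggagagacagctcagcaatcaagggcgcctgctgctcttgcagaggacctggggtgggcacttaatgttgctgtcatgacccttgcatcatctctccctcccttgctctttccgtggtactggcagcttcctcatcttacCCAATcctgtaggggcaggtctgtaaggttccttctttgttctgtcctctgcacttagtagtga
Dpt: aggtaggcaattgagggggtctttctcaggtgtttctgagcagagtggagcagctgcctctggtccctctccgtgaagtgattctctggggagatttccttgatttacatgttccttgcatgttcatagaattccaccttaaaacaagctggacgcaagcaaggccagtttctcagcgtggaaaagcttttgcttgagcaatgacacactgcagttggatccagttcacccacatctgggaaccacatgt
Gsn start 3: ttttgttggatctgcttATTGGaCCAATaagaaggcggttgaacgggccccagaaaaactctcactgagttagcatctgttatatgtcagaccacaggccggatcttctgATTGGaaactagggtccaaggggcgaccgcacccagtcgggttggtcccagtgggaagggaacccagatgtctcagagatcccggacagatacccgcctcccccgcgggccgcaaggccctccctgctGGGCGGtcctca
Searched on both strands were the TATA box as TATAAA, the CCAAT box as CCAAT, the AP-1 site as TGANTCA and the GC box as GGGCGG, and no match overlapped another. The Pi16 window held 1 CCAAT, 64 bases before the start. Of the 3 Gsn windows the printed one has the most matches. It held 3 matches to CCAAT and 1 to GGGCGG, with GGGCGG 12 bases before the start. The window of Gsn start 1 held 2 matches to GGGCGG, 28 and 15 bases before the start, and that of start 2 held 1 to CCAAT and 1 to GGGCGG. Neither the Dpt nor the Cd34 window held any of the 4. Among all 32851 windows of that length in the table, 33.8% held the CCAAT box, 32.7% the GC box, 12.4% the TATA box and 6.75% the AP-1 site. A match is a run of letters and not a shown binding site.

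Per kilobase of exon (GENCODE M21 lengths, all exons of a gene merged), Gsn was the most abundant of the 8, at a mean of 769 CPM per kb over the 12 libraries. Clec3b followed at 132, Dpt at 78.6 and Pi16 at 43.2 CPM per kb. Each of these 4 exceeded the next gene in the order in all 12 libraries. The same length divides a gene in every library, so the libraries do not check the lengths. The authors' annotation is not given, and the order depends on the lengths used. Not divided by length, Pi16 averaged 275 CPM, above Dpt at 135 and Clec3b at 131 CPM. Below them came Ly6a at 29.1, Mfap5 at 23.5, Scara5 at 18.5 and Cd34 at 15.8 CPM per kb. Among these 4 the neighbours overlapped: Ly6a exceeded Mfap5 in 8 of 12 libraries, Mfap5 exceeded Scara5 in 11 and Scara5 exceeded Cd34 in 10. All values that follow are CPM, not divided by length, and serve to compare a gene with itself between groups.

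Among the surface proteins, Cd34, a sialomucin of fibroblasts, endothelium and progenitors, was at 179.8, 119 and 109.3 CPM in WT nicotine aortas, against 108.8, 106 and 105 CPM in WT air aortas. It was at 110.5, 97.9 and 116 CPM in KO nicotine aortas, against 115, 120.2 and 94.1 CPM in KO air aortas. The WT groups did not overlap, but only WT nicotine 6 lay well above the other 11 libraries, and the KO groups overlapped. Ly6a, which encodes the progenitor marker Sca-1, was at 50.6, 36.7 and 47.5 CPM in WT nicotine aortas, against 34.4, 29.7 and 25.7 CPM in WT air aortas. It was at 41.0, 29.4 and 31.2 CPM in KO nicotine aortas, against 27.8, 39.0 and 28.4 CPM in KO air aortas. All 3 WT nicotine libraries lay above all 3 WT air libraries, whereas the KO groups overlapped. Ly6a belongs to a family of similar neighbouring genes, and how the authors counted reads shared between them is not given in the sources used here, so its level is uncertain to that extent.

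Pi16, a membrane-bound or secreted peptidase inhibitor that defines the progenitor-like fibroblast state, was at 351, 288 and 271 CPM in WT nicotine aortas, against 246, 299.7 and 268 CPM in WT air aortas. In the knockout it was at 286, 199 and 263 CPM with nicotine, against 296, 248 and 284 CPM with air. Both pairs of groups overlapped, and KO nicotine 4 was the lowest library of the 12. Scara5, a scavenger receptor that takes up ferritin, was at 133, 136 and 102 CPM in WT nicotine aortas, against 94.2, 112 and 100.5 CPM in WT air aortas. The KO nicotine aortas had 119, 105 and 121 CPM, against 133, 98.6 and 96.5 CPM in KO air aortas. For Scara5 too both pairs overlapped, with WT nicotine 12 inside the WT air range.

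Of the secreted proteins, Clec3b, which encodes the plasminogen-binding tetranectin, was at 200.2, 159 and 128 CPM in WT nicotine aortas, against 101, 127 and 109.9 CPM in WT air aortas. In the KO groups it was at 135, 119 and 119 CPM in nicotine, against 135, 114 and 127 CPM in air. The WT groups were separate by a narrow margin at WT nicotine 12, and the KO groups overlapped. Dpt, dermatopontin, a matrix protein that takes part in collagen fibril assembly, was at 141, 149 and 154 CPM in WT nicotine aortas, against 131, 140.2 and 125 CPM in WT air aortas. It was at 143, 127 and 112 CPM in KO nicotine aortas, against 139, 130.0 and 135 CPM in KO air aortas. The WT groups were separated by less than 1 CPM, and the KO nicotine libraries lay on both sides of the KO air libraries.

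Mfap5, a glycoprotein of elastic-fibre microfibrils, was at 94.8, 111 and 93.2 CPM in WT nicotine aortas, against 86.6, 99.9 and 89.2 CPM in WT air aortas. It was at 78.0, 64.7 and 96.0 CPM in KO nicotine aortas, against 63.6, 72.0 and 63.6 CPM in KO air aortas. Nicotine and air groups overlapped within each genotype, but all 3 KO air libraries lay below all 6 WT libraries. Gsn, gelsolin, which severs and caps actin filaments, was at 2642, 2744 and 2612 CPM in WT nicotine aortas, against 2051, 2520.1 and 2420.1 CPM in WT air aortas. In KO aortas it was at 2536, 2449 and 2075 CPM with nicotine, against 2492, 2249.6 and 2361 CPM with air. The WT nicotine libraries were the 3 highest of the 12, and the KO groups overlapped.

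**Figure D1:**
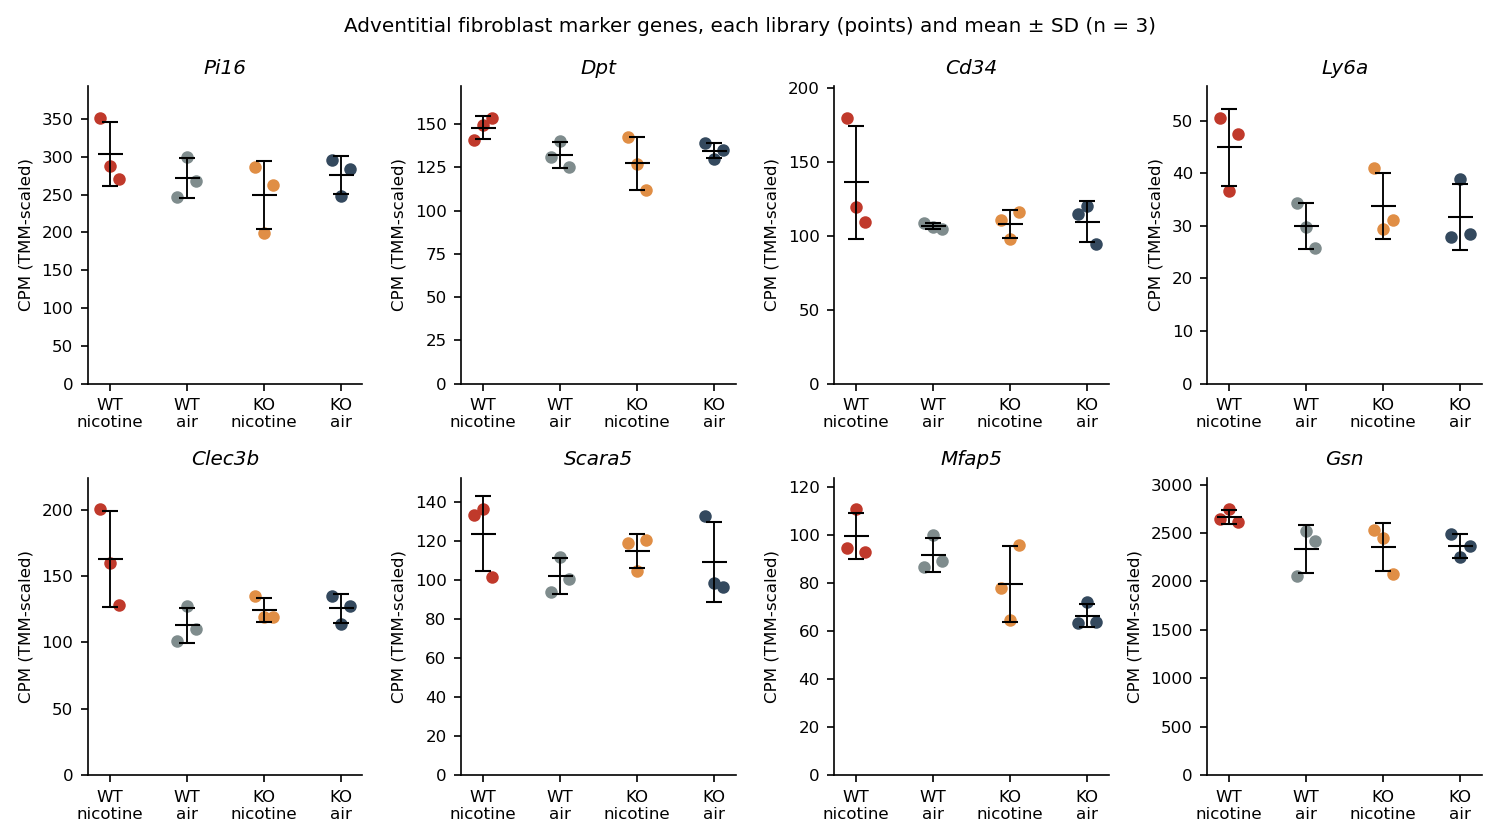
Level of each marker gene in CPM (y axis, from 0) in the 4 groups (x axis), with a point for each library and the mean ± SD of 3 libraries as bars. For all 8 genes the WT nicotine mean was the highest of the 4 group means, and the Mfap5 panel shows the 3 KO air libraries between 63.6 and 72.0 CPM, below every WT library.

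In WT aortas, every one of the 8 genes had a higher mean after nicotine than after air, and none passed the test. Clec3b averaged 163 ± 36.1 CPM in WT nicotine and 113 ± 13.3 CPM in WT air (mean ± SD of 3 libraries), a log2 fold change of 0.53 ± 0.15 (SE; unadjusted 95% interval 0.20 to 0.85). Its unadjusted p in edgeR's quasi-likelihood test was 0.00393, and its adjusted p over all tested genes was 0.290. Ly6a averaged 44.9 ± 7.27 CPM in WT nicotine and 29.9 ± 4.33 CPM in WT air (mean ± SD of 3 libraries), a log2 fold change of 0.59 ± 0.18 (SE; interval 0.19 to 0.98; edgeR adjusted p = 0.341). These were the 2 largest differences of the 8 in this comparison, and the only ones with an unadjusted edgeR p under 0.05, a level that 9.84% of all tested genes reached. Cd34 averaged 136 ± 38.1 CPM in WT nicotine and 106 ± 2.11 CPM in WT air (mean ± SD of 3 libraries), a log2 fold change of 0.35 ± 0.17 (SE; edgeR adjusted p = 0.510). That value rested on 1 library, since without WT nicotine 6 it was 0.12. Gsn averaged 2666 ± 69.1 CPM in WT nicotine and 2330.4 ± 247 CPM in WT air, at 0.19 ± 0.14 on the log2 scale (SE). Dpt, at 148 ± 6.66 CPM in WT nicotine and 132 ± 7.61 CPM in WT air, differed by 0.16 ± 0.11 (SE), and Pi16, at 303 ± 42.5 CPM in WT nicotine and 272 ± 26.8 CPM in WT air, by 0.16 ± 0.15 (SE), which was 0.059 without WT nicotine 6. Together with Scara5 and Mfap5, these 5 genes had log2 fold changes between 0.12 (Mfap5) and 0.28 (Scara5), with edgeR adjusted p-values between 0.566 and 0.818. Without WT nicotine 11 the Mfap5 value was 0.050.

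The median log2 fold change of the 8 genes was 0.24, and 8 of 8 lay above 0, beside a median of -0.0047 and 49.4% above 0 among all tested genes. For 5 of the 8 (Dpt, Cd34, Ly6a, Clec3b and Gsn) all WT nicotine libraries lay above all WT air libraries, which held for 7.13% of all tested genes. For none did they all lie below, which held for 6.05%. The edgeR test called 3 of the 14621 genes in this comparison (0.0205%), all higher in WT nicotine, and none of the 8. DESeq2, which called 115 of all genes in this comparison, and limma voom called none of the 8 either. In the authors' deposited table, too, the WT values of the 8 genes all lay above 0, with the smallest adjusted p-values at 0.248 for Ly6a and 0.310 for Clec3b. That table held 123 genes with an adjusted p under 0.05.

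**Figure D2:**
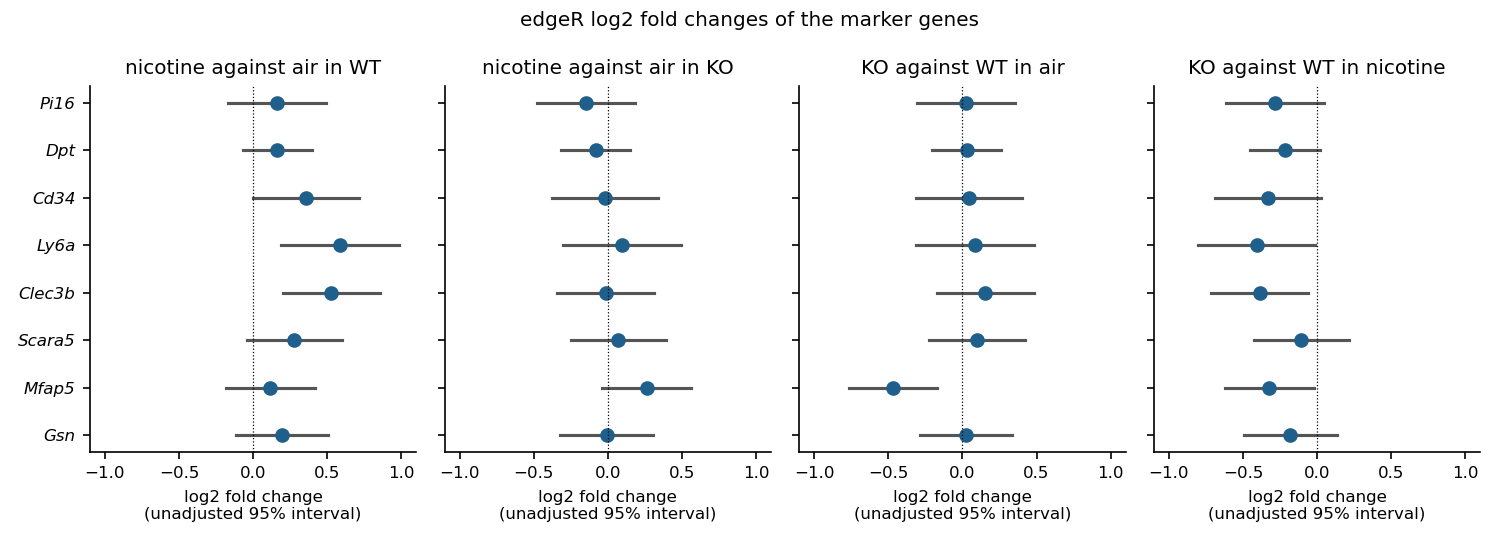
Log2 fold change (x axis) of each marker gene (y axis) in 4 comparisons, with points for the edgeR estimate and lines for its unadjusted 95% interval over 3 libraries a group. All 8 points lie right of 0 for nicotine against air in WT and left of 0 for KO against WT in nicotine, while Mfap5, at -0.47, stands left of the other 7 for KO against WT in air.

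In KO aortas the 8 genes had no common direction, with 3 of 8 above 0 and a median log2 fold change of -0.011, beside 51.5% and 0.0095 for all tested genes. Mfap5 had the largest difference. It averaged 79.6 ± 15.7 CPM in KO nicotine and 66.4 ± 4.82 CPM in KO air (mean ± SD of 3 libraries), a log2 fold change of 0.26 ± 0.14 (SE; edgeR adjusted p = 0.878), which was 0.11 without KO nicotine 5 and 0.39 without KO nicotine 4. Clec3b averaged 124 ± 8.96 CPM in KO nicotine and 125 ± 10.6 CPM in KO air (mean ± SD of 3 libraries), a log2 fold change of -0.014 with an unadjusted 95% interval of -0.34 to 0.31. Pi16, at 249 ± 45.2 CPM in KO nicotine and 276 ± 24.8 CPM in KO air, had the lowest value, -0.15 ± 0.15 (SE), which was -0.0075 without KO nicotine 4 and -0.25 without KO nicotine 3. The corresponding value for Ly6a was 0.09, with an interval of -0.30 to 0.49, and without KO nicotine 3 it was -0.06. Dpt, at -0.082, Cd34, at -0.017, Gsn, at -0.0089, and Scara5, at 0.071, each lay on both sides of 0 as single libraries were left out. Over the 8 genes the intervals spanned -0.48 to 0.56. No marker gene passed the edgeR test or reached an unadjusted p under 0.05 in KO, and of all tested genes 0% were called and 4.58% reached that unadjusted level. The nicotine and air libraries were separate for none of the 8, beside 5.13% of all tested genes with nicotine above air and 5.55% with nicotine below. Without KO nicotine 3 the median of the 8 was -0.060 and 2 of 8 lay above 0, and without KO nicotine 4 the median was 0.034. In the authors' deposited table every one of the 8 had an adjusted p of 0.997 in KO. That table held 7 genes with an adjusted p under 0.05.

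The difference between the nicotine responses of the genotypes (KO minus WT) was below 0 for 7 of the 8 genes, with a median of -0.28 on the log2 scale, beside 52.9% above 0 and a median of 0.020 for all tested genes. Clec3b had the largest, at -0.54 ± 0.21 (SE; unadjusted 95% interval -1.002 to -0.079), with an unadjusted edgeR p of 0.0249 and an adjusted p of 0.999. It was the 1 marker gene under an unadjusted p of 0.05, which 4.43% of all tested genes reached. Ly6a had a difference of -0.49 ± 0.26 (SE; interval -1.05 to 0.07; edgeR adjusted p = 0.999), which was -0.32 without KO air 2. Cd34, Pi16, Dpt, Scara5 and Gsn lay between -0.37 (Cd34) and -0.20 (Gsn), and Cd34 was -0.14 without WT nicotine 6. Only Mfap5 lay above 0, at 0.15, and it was -0.024 without KO nicotine 5. Without KO nicotine 3 the median of the 8 was -0.35 and 1 of 8 lay above 0, with Clec3b at -0.59 and Ly6a at -0.64. The edgeR test called no marker gene and 0% of all genes, so a higher response in WT than in KO was not established for any of the 8. Averaged over both genotypes, nicotine against air gave a median of 0.17 and 8 of 8 genes above 0, beside 51.4% of all tested genes, but Pi16 turned to -0.015 with upper-quartile scaling. Without KO nicotine 3 that median was 0.16 and 6 of 8 lay above 0, with Pi16 at -0.045 and Dpt at -0.0014. Ly6a, at 0.34, and Clec3b, at 0.26, were the 2 with an unadjusted edgeR p under 0.05, against 10.9% of all genes, and again 0% of all genes and no marker gene were called.

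Between the genotypes in air, Mfap5 was the marker gene that differed most. It averaged 66.4 ± 4.82 CPM in KO air and 91.9 ± 7.07 CPM in WT air (mean ± SD of 3 libraries), a ratio of 0.722 and a log2 fold change of -0.47 ± 0.14 (SE; unadjusted 95% interval -0.77 to -0.17). All 3 KO air libraries lay below all 3 WT air libraries, as they did for 6.06% of all tested genes, and for no marker gene did they all lie above, beside 5.75%. Its unadjusted edgeR p was 0.00483 and its adjusted p 0.995. Mfap5 was the 1 marker gene under an unadjusted p of 0.05, beside 4.36% of all genes, and the edgeR test called 0% of all genes in this comparison. The other 7 lay between 0.023 (Gsn) and 0.15 (Clec3b) on the log2 scale. With 7 of 8 above 0 and a median of 0.035, beside 50.2% and 0.0013 for all tested genes, no shared direction stood out. The unadjusted 95% intervals of the other 7 ran between -0.31 and 0.48.

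In nicotine all 8 genes were lower in KO than in WT, with a median log2 fold change of -0.30, beside 52.3% of all tested genes above 0 and a median of 0.014. This comparison shares the WT nicotine libraries, the highest group for all 8 genes, with the nicotine comparison in WT, so the directions are not separate observations. Ly6a averaged 33.9 ± 6.28 CPM in KO nicotine and 44.9 ± 7.27 CPM in WT nicotine (mean ± SD of 3 libraries), a log2 fold change of -0.41 ± 0.18 (SE; edgeR adjusted p = 0.575). Clec3b averaged 124 ± 8.96 CPM in KO nicotine and 163 ± 36.1 CPM in WT nicotine (mean ± SD of 3 libraries), a log2 fold change of -0.39 ± 0.15 (SE; edgeR adjusted p = 0.491), and it was -0.22 without WT nicotine 6. For Mfap5 the averages were 79.6 ± 15.7 CPM in KO nicotine and 99.6 ± 9.71 CPM in WT nicotine (mean ± SD of 3 libraries), a log2 fold change of -0.32 ± 0.14 (SE; edgeR adjusted p = 0.556), which was -0.19 without KO nicotine 4 and -0.49 without KO nicotine 5. These 3 had an unadjusted edgeR p under 0.05, beside 8.34% of all genes. Gsn was the only marker gene with all KO nicotine libraries below all WT nicotine libraries, which held for 5.59% of all tested genes, and none had them all above, which held for 5.8%. The edgeR test called 1 of the 14621 genes (0.00684%), and none of the 8. Without KO nicotine 3 all 8 genes remained below 0, with a median of -0.32. Cd34, Pi16, Dpt, Gsn and Scara5 lay between -0.33 (Cd34) and -0.11 (Scara5), and Cd34 was -0.091 without WT nicotine 6.

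Over both exposures, Mfap5 was lower in KO than in WT by 0.40 ± 0.10 on the log2 scale (SE), a KO to WT ratio of 0.760. Its unadjusted edgeR p was 0.00134 and its adjusted p 0.273. DESeq2 gave an adjusted p of 0.0464 for the same comparison, the one call of a marker gene by any fit run. DESeq2 called 115 of all genes there, 27 higher and 88 lower in KO. Neither edgeR nor limma voom called a marker gene. Leaving out each library in turn kept the Mfap5 value between -0.48 and -0.33 in edgeR. Mfap5 alone of the 8 had an unadjusted edgeR p under 0.05 here, beside 8.41% of all genes, and the edgeR test called 0% of all genes. Of the 8 genes, 0 lay above 0, beside 52.0% of all tested genes, although Scara5 turned to 0.019 with upper-quartile scaling. The median was -0.12. Without KO nicotine 3 it was -0.15, with 0 of 8 above 0 and Mfap5 at -0.39.

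Set against the other 7 marker genes of the same library, Mfap5 differed in the same way in air. Its log2 CPM minus the mean log2 CPM of the other 7 lay between -1.49 and -1.22 in KO air, against -0.86 to -0.80 in WT air, so the 2 groups were separate. With nicotine the ranges were -1.27 to -0.77 in KO and -1.26 to -0.83 in WT, and these overlapped. KO nicotine 5 held the highest of the 12 values and KO air 1 the lowest. The numbers compare Mfap5 with genes whose level also varies, and were not tested. They rest on the same Mfap5 counts as above and are not a separate observation.

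**Figure D3:**
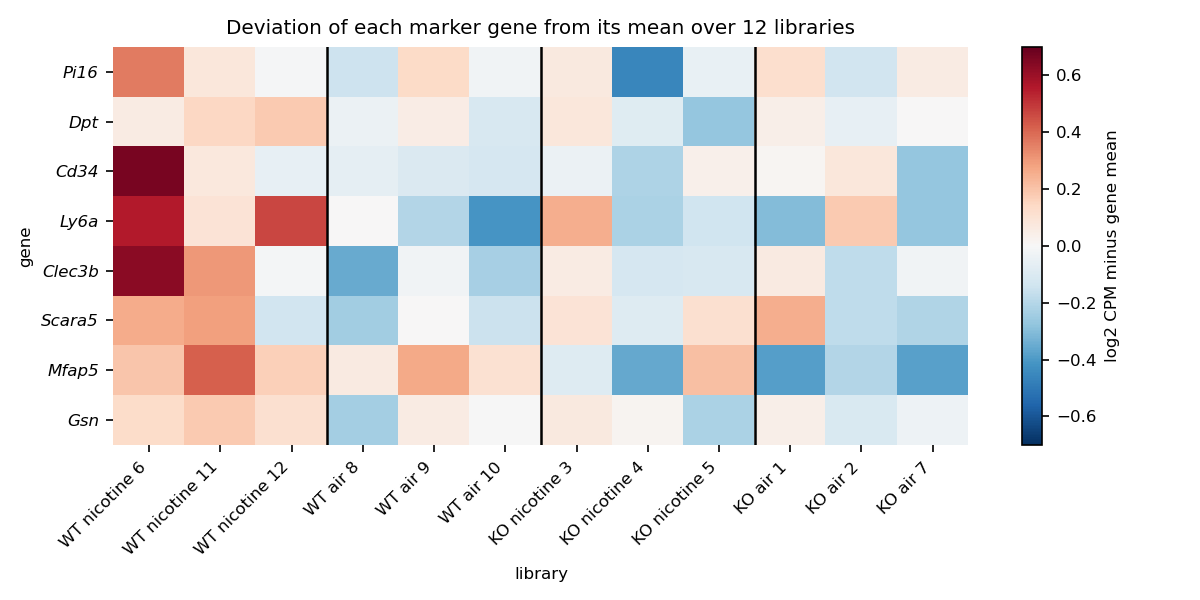
Log2 CPM of each marker gene (rows) in each library (columns, by group) minus its mean over the 12 libraries, with red above and blue below the mean. WT nicotine 6 holds the highest value of 4 genes, WT nicotine 11 of 3 and WT nicotine 12 of 1, and the Mfap5 row is blue in all 3 KO air libraries.

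The highest library of the 12 was a WT nicotine library for every one of the 8 genes. WT nicotine 6 was highest for Pi16, Cd34, Ly6a and Clec3b, WT nicotine 11 for Scara5, Mfap5 and Gsn, and WT nicotine 12 for Dpt. WT air held the lowest of the 4 group means for 5 genes, KO nicotine for 2 and KO air for 1. From the lowest to the highest library the genes spanned between 1.34-fold (Gsn) and 1.98-fold (Clec3b). Within groups the SD of log2 CPM ran between 0.10 for Dpt and 0.25 for Ly6a, beside a median of 0.27 over all tested genes, most of which are lower in level. Beside the 1000 genes nearest in level to each, 6 of the 8 had an SD above the median, with percentiles between 19.3 (Dpt) and 72.7 (Ly6a).

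Over the 12 libraries, Pearson's r of log2 CPM was above 0 for all 28 pairs, with a median of 0.44 and a range of 0.16 (Dpt and Cd34) to 0.78 (Dpt and Gsn). Once the group means were taken out, 21 of 28 pairs were above 0 and the median was 0.21, with a range of -0.37 to 0.78. The pairs share libraries, depth and scaling, and genes are not independent replicates, so no p is given. Among the 10448 other named genes at 5 CPM or more, the 5 whose log2 CPM was most like the mean standardised level of the 8 over the 12 libraries were F13a1, Gda, Pcolce, Fbln2 and Igfbp4, with r between 0.91 and 0.92. Once the group means were taken out, r was 0.76 for F13a1, 0.90 for Gda, 0.94 for Pcolce, 0.93 for Fbln2 and 0.89 for Igfbp4. F13a1 encodes a clotting factor subunit and stands in the list of macrophage markers used here, while Pcolce, a procollagen-processing enhancer, and Fbln2, a matrix glycoprotein, stand in that of general fibroblast markers. For single genes the closest were Usp15 for Cd34 and Apbb1ip for Clec3b (r = 0.95 each), Fbln1 for Pi16 (0.92), Sfrp1 for Scara5 (0.91), S100a10 for Ly6a and Ptpn13 for Gsn (0.89 each), Zfp598 for Dpt (0.87) and Bambi for Mfap5 (0.86). These values are the highest of many and describe 12 libraries.

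A list of 18 other genes of adventitial and progenitor-like fibroblasts was followed in the same comparisons. This list and that of general fibroblast genes below were chosen with earlier results of these data known. Their shares beside those of all tested genes are therefore no independent check on the marker genes. All were measured in the same libraries, so shared directions are not separate observations. In WT, 14 of 18 were higher after nicotine than after air, beside 49.4% of all tested genes, with a median log2 fold change of 0.50. Of the 18, 11 had an unadjusted edgeR p under 0.05 (10 higher and 1 lower), beside 9.84% of all tested genes. None was called in either direction. The 2 with the smallest p were Igfbp6, which encodes a binding protein of insulin-like growth factors, at 0.99 ± 0.18 (SE; edgeR adjusted p = 0.121), and Gfpt2, an enzyme of hexosamine synthesis, at 0.92 ± 0.20 (SE; edgeR adjusted p = 0.194). In KO, 7 of 18 were higher after nicotine, beside 51.5% of all tested genes, with a median of -0.064. None had an unadjusted edgeR p under 0.05, beside 4.58% of all tested genes. The smallest p-values there belonged to Emilin2, an elastic-fibre glycoprotein (0.41), and Sema3c, a secreted guidance protein (-0.28), which were 0.16 and -0.16 without KO nicotine 3. Without that library 6 of 18 were higher in KO nicotine, with a median of -0.044. In the difference of responses 2 of 18 lay above 0 (3 of 18 without KO nicotine 3), beside 52.9% of all tested genes. Igfbp6 was at -1.18 ± 0.26 (SE; edgeR adjusted p = 0.777) and Gfpt2 at -0.95 (edgeR adjusted p = 0.999).

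Between the genotypes in nicotine, 0 of the 18 other adventitial genes lay above 0, beside 52.3% of all tested genes, with a median of -0.31. Gfpt2 was at -1.01 ± 0.20 and Igfbp6 at -0.90 ± 0.18 (SE; edgeR adjusted p = 0.176 each). Leaving out KO nicotine 3 gave 1 of 18 above 0 and a median of -0.35. In air 8 of 18 lay above 0, beside 50.2% of all tested genes, and the median was -0.033. The genes of smallest p in air were Procr, a protein C receptor, at 0.36 and Igfbp6 at 0.28. Of 19 general fibroblast genes 18 could be tested, Tcf21 having too few counts. In WT 12 of the 18 were higher after nicotine, with a median of 0.26, and in KO 1 of 18, with a median of -0.15. Among all tested genes 49.4% were higher after nicotine in WT and 51.5% in KO. Leaving out KO nicotine 3 again gave 1 of 18 in KO, with a median of -0.12, and Thy1, a fibroblast surface protein, and Fbln2 had the smallest p in KO with all libraries, at -0.33 and 0.21. For KO against WT in nicotine 1 of 18 lay above 0 with or without KO nicotine 3, with a median of -0.30 with it and -0.29 without it. Col14a1, a fibril-associated collagen, had log2 fold changes of 0.51 for nicotine in WT (edgeR adjusted p = 0.279) and -0.62 for KO against WT in nicotine (edgeR adjusted p = 0.291). Fbln2 was at 0.52 for nicotine in WT (edgeR adjusted p = 0.345), and Thy1 at -0.74 for KO against WT in nicotine (edgeR adjusted p = 0.470). No gene of either list was called in any of the 7 comparisons.

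Within each list, most markers of other cell types went in 1 direction between the WT groups. Only the macrophage sums were separate, and those of the other lists below overlapped. Among all tested genes 49.4% were higher in WT nicotine than in WT air. The 16 macrophage genes summed to 546 to 777 CPM in WT nicotine, against 351 to 369 CPM in WT air, and 15 of 16 were higher, with a median log2 fold change of 0.78. The 12 adipocyte genes summed to 4225 to 5246 CPM in WT nicotine, against 1460 to 4824 CPM in WT air, and 11 of 12 were higher. Contractile genes of smooth muscle went the other way, at 38290 to 44131 CPM in WT nicotine against 42163 to 62950 CPM in WT air for the 17 together, and 1 of 17 was higher. The 15 endothelial genes stood at 1457 to 2111 CPM in WT nicotine against 1524 to 1730.4 CPM in WT air (12 of 15 higher), and the 10 mesothelial genes at 24.7 to 36.6 CPM against 14.6 to 25.04 CPM (10 of 10 higher). All 14 immediate early genes, which respond within minutes to handling and stress, were higher in WT nicotine, at 2155 to 4349 CPM summed, against 821 to 3029 CPM in WT air. In KO, where 3 of the 8 marker genes were higher after nicotine, so were 12 of 12 adipocyte genes (median 0.62). There 12 of 15 endothelial (0.27) and 2 of 17 contractile genes (-0.35) were higher. Without KO nicotine 3 these 3 counts were 12, 12 and 1. Of the macrophage genes 11 of 16 were higher in KO (5 without KO nicotine 3), of the mesothelial 3 of 10 (0) and of the immediate early 5 of 14 (7). Among all tested genes 51.5% were higher in KO. No gene of these lists was called by edgeR, and the markers were above 0 counts in all libraries except Upk1b and Krt8 of the mesothelial list, at 0 in 1 library each.

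With each library's adipocyte level as a covariate, the median of the 8 genes for nicotine in WT was 0.35, with Clec3b at 0.63 and Ly6a at 0.48. With the contractile level as a covariate it was 0.30, with Clec3b at 0.55 and Ly6a at 0.44. The 8 genes stayed above 0 in both fits and again none was called. Most adipocyte genes were higher and most contractile genes lower in WT nicotine, so these fits cannot separate cell make-up from exposure. The part of the adipocyte, contractile, macrophage, mesothelial, endothelial and immediate early genes in the result was not tested. Beside the lower values of the 8 genes in KO than in WT with nicotine, 3 of 16 macrophage genes lay above 0 (1 of 16 without KO nicotine 3), and they summed to 415 to 628 CPM in KO nicotine, against 546 to 777 CPM in WT nicotine. Of the immediate early genes 0 of 14 lay above 0 (2 of 14 without KO nicotine 3). They summed to 1429.8 to 3076 CPM in KO nicotine, against 2155 to 4349 CPM in WT nicotine. The hepatocyte genes were all higher (11 of 12 without KO nicotine 3). They summed to 79.8 to 4162 CPM in KO nicotine, against 36.2 to 207 CPM in WT nicotine. Of the mesothelial genes 9 of 10 were higher (2 of 10 without KO nicotine 3). Endothelial genes were higher in 12 of 15 with or without KO nicotine 3. Adipocyte genes were higher in 8 of 12 (7 of 12 without KO nicotine 3). Contractile genes were higher in 7 of 17, but in 12 of 17 without KO nicotine 3, so their direction rested on that library. Among all tested genes 52.3% lay above 0 in this comparison with all libraries. In the difference of responses 2 of 16 macrophage genes and 1 of 14 immediate early genes lay above 0, with medians of -0.70 and -1.07. Among all tested genes 52.9% lay above 0. Without KO nicotine 3 these were 1 of 16 macrophage and 1 of 14 immediate early genes, with medians of -0.93 and -1.01. The part of these lists in both results was not tested. Beside the Mfap5 value in air, the mesothelial genes summed to 31.2, 30.6 and 121 CPM in KO air, against 14.6 to 25.04 CPM in WT air. The contractile genes summed to 43981 to 52643 CPM in KO air, against 42163 to 62950 CPM in WT air. In that comparison 10 of 10 mesothelial, 0 of 17 contractile and 12 of 12 hepatocyte genes lay above 0, beside 50.2% of all tested genes. So did 11 of 12 adipocyte, 12 of 14 immediate early, 12 of 16 macrophage and 12 of 15 endothelial genes. Mfap5 was at -0.39 with the adipocyte covariate and at -0.41 with the contractile covariate in that comparison. The part of all these lists in the Mfap5 value was not tested.

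**Figure D4:**
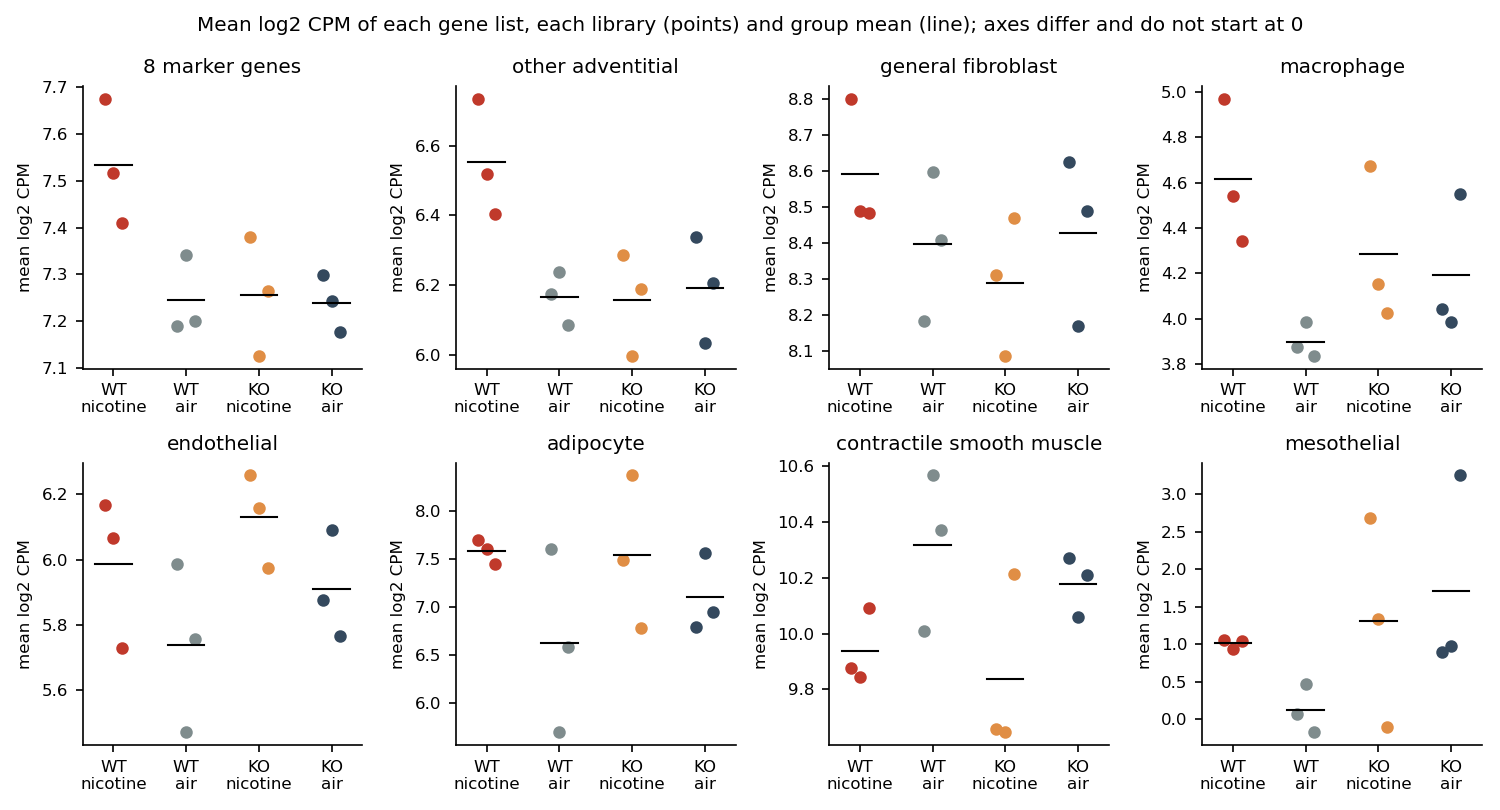
Mean log2 CPM (y axis, ranges differ and do not start at 0) of the 8 marker genes and of 7 other gene lists in the 4 groups (x axis), with a point for each library and a line at the group mean. The marker genes lie between 7.41 and 7.67 in WT nicotine, against 7.19 to 7.34 in WT air, and the macrophage list likewise lies higher in WT nicotine (4.34 to 4.97) than in WT air (3.84 to 3.98).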

How the data were processed

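RNA of thoracic aorta was measured in 12 SMART-Seq v4 libraries on Illumina instruments, per the labels' protocols. The authors deposited raw whole-number read counts per gene symbol, which were made with HTSeq on build mm9, per the submitters' processing notes. Which aligner, annotation and strand setting they used is not given in the sources used here. The authors also deposited tables of nicotine over air per genotype, with a mean of normalised counts (a signal), log2 fold changes with their standard errors in log2, a test score and p-values, per the file headers. These log2 values correlated with those computed here at r = 1.00 across genes in both genotypes, which gives their direction.

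Groups came from the sample titles. Library numbers are shared by no groups, so nothing could be paired. Pairs of replicates differed by 8.79 to 74.8 in chi-square per degree of freedom, so none was a repeat of the same counts. Counts of the 14621 genes that passed filterByExpr were scaled by TMM (factors 0.962 to 1.05). A robust quasi-likelihood model of edgeR 4.0.16 with a mean for each of the 4 groups was fitted to all 12 libraries. A gene was called where its p, adjusted over all tested genes by Benjamini-Hochberg, was under 0.05, and the 7 comparisons were not adjusted for each other. CPM are TMM-scaled, and log2 CPM use a prior count of 2. Intervals are the estimate with edgeR's error and the t distribution of its degrees of freedom, without adjustment. Unadjusted p-values are two-sided. The fit was tested on simulated counts, with planted changes larger than any difference of the marker genes seen here. That test does not show whether differences of their size could be called. Alternatives were DESeq2 1.42.0, limma 3.58.1 voom, other size factors, filters and fits, marker levels as covariates, and leaving out each library. Leaving out KO nicotine 3 in comparisons that do not use its group and the gene lists without it were added after seeing the data.

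The marker genes and the gene lists were chosen with earlier results of these data known. The genes to name were the 8 in each comparison and, from each fibroblast list, up to 2 genes of smallest p. Where they lay near each other they are given as a range. Further lists of hepatocyte, skeletal muscle and Schwann cell markers served as checks. For nicotine in WT, 7 of 12, 10 of 11 and 5 of 8 of their tested genes lay above 0, beside 49.4% of all tested genes. Exon lengths came from GENCODE M21, by symbol, for levels per kilobase only. Antisense genes cover 3.49% of the exon length of Pi16 and 2.03% of that of Cd34, and without strand their reads cannot be told apart.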

Additional observations from a re-analysis of the deposited data

How the results depend on the processing

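No paired analysis was possible because no 2 groups share a library number. Of 1032 values of single marker genes under the alternatives, 987 kept their direction and their side of the threshold, 44 reversed and 1 passed the threshold (Mfap5 in KO against WT over both exposures with DESeq2, which called 1 marker gene there). After reversal none of the 44 exceeded 0.093 in size on the log2 scale.

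Counts of genes called moved most. With DESeq2 they were 115 for nicotine in WT (3 with edgeR), 9 for the difference of responses, 96 for nicotine over both genotypes, 13 for KO against WT in air, 87 in nicotine (1 with edgeR) and 115 over both exposures (0 with edgeR for the other 4). Without a filter they were 21, 1 and 6 in the first 3 of these, and 7 and 12 in the last 2. With size factors of DESeq2 in edgeR the count was 7 for nicotine in WT and 6 for KO against WT in nicotine, and with at least 10 counts in 6 libraries it was 7 for nicotine in WT. With the adipocyte covariate the counts were 0 for nicotine in WT, 8 for KO against WT in nicotine and 6 over both exposures, and with the contractile covariate 0, 7 and 4. Fitting only the groups compared gave 0 for nicotine in WT and 2 for KO against WT in air. Leaving out 1 library at a time gave 0 to 34 for nicotine in WT (34 without WT air 8), 0 to 38 for nicotine over both genotypes (38 without WT air 8), 0 to 4 for KO against WT in nicotine, and 0 to 1 for the difference of responses and for KO against WT over both exposures. The cause was not tested. The median of the marker genes moved by more than 0.106, the SD of their mean log2 CPM within groups, in 1 case, to 0.35 for nicotine in WT with the adipocyte covariate. Within that tolerance, leaving out 1 library took the median for nicotine in KO over 0, between -0.060 and 0.034, and that for KO against WT in air between 0.0019 and 0.081.

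The values after reversal all lay near 0, but the values they replaced were up to 0.15, for Mfap5 in the difference of responses. For nicotine in KO, Clec3b was 0.035 and Gsn 0.015 with the adipocyte covariate, and Ly6a was -0.038 and Clec3b 0.0024 with the contractile covariate. For nicotine over both genotypes, Pi16 was -0.015 with upper-quartile factors and -0.0017 with voom, and Dpt was -0.0063 with the contractile covariate. For KO against WT over both exposures, Scara5 was 0.019 with upper-quartile factors, 0.024 with the adipocyte and 0.018 with the contractile covariate. With 1 library left out, the ranges for nicotine in KO were -0.16 to 0.0048 for Dpt, -0.12 to 0.055 for Cd34, -0.061 to 0.27 for Ly6a, -0.077 to 0.042 for Clec3b, -0.011 to 0.23 for Scara5 and -0.058 to 0.078 for Gsn. They were -0.024 to 0.28 for Mfap5 in the difference of responses, and for nicotine over both genotypes -0.045 to 0.076 for Pi16 and -0.0014 to 0.091 for Dpt. For KO against WT in air they were -0.026 to 0.099 for Pi16, -0.014 to 0.071 for Dpt, -0.031 to 0.14 for Cd34, -0.093 to 0.21 for Ly6a, -0.059 to 0.18 for Scara5 and -0.045 to 0.082 for Gsn. For Scara5 in KO against WT over both exposures the range was -0.087 to 0.035. The lowest count of a marker gene in a library was 308, and with 3 libraries a group the unadjusted interval of Clec3b for nicotine in WT ran between 0.20 and 0.85.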
